A study of Mus musculus with 34 samples.

Results

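The genes followed here are 10 nuclear regulators encoded in the segment of mouse chromosome 16 that is duplicated in Dp16 mice: Brwd1, Hmgn1, Chaf1b, Morc3, Setd4, Ets2, Gabpa, Bach1, Zbtb21 and Nrip1. They were taken by gene symbol from the deposited cortex count table, 10 of 55385 genes listed, and of 384 genes listed in the segment. The segment was taken as the stretch from Lipi to Zbtb21 (GRCm38, chromosome 16, 75540514 to 97962622). All 10 were among the 17632 genes with enough reads to be tested. Chaf1b passed that filter although only 10 of 15 duplication carriers and 8 of 19 non-carriers reached its floor of 0.555 CPM. The other 9 members reached it in every library. CPM are counts scaled to a library total of 1e6, before TMM scaling in the filters of the fits and after it elsewhere.

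Poly-A RNA was sequenced from brain cortex of 34 mice at 6 months of age, 1 library a mouse, and the mice were wild-type C57BL/6J, Dp16, 5xFAD or 5xFAD-Dp16. The Dp16 chromosome is a model of Down syndrome, in which the segment is present in an additional copy in every cell of the body. 5xFAD mice carry mutant human amyloid precursor protein and presenilin 1 transgenes under Thy1 promoter sequences, which are active mainly in neurons, and 5xFAD-Dp16 mice carry both lesions. Mice of each genotype were gavaged once a day for a month with tofacitinib, a JAK1/3 inhibitor, at 15 mg/kg, or with its 0.5% methylcellulose vehicle, called sham. Wild-type groups held 5 sham and 5 tofacitinib mice, Dp16 groups 3 and 5, 5xFAD groups 4 and 5, and 5xFAD-Dp16 groups 3 and 4. Of the 34 mice, 16 were female and 18 male, and 15 carried the duplication. Sex was unevenly spread over the groups. In the order sham and tofacitinib, females numbered 2 and 2 in wild-type and 2 and 3 in Dp16. They numbered 1 and 2 in 5xFAD and 2 and 2 in 5xFAD-Dp16. No litter, batch or date is named in the labels, so p-values measure the spread between these samples.

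As background, a transcript that follows gene copy number rises in carriers by the ratio of 3 copies to 2, which is 1.5-fold. The members work on chromatin at different steps. Some bind nucleosomes or modified histones, deposit histones behind the replication fork or silence chromatin, while others are DNA-binding factors or corepressors that act at particular genes.

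Libraries held 16029841 to 21388650 counted reads. The median ratio of 95 segment genes to wild-type sham was 1.38 to 1.52 in the 15 carriers and 0.903 to 1.08 in the 19 non-carriers, and Thy1 was at 1427 to 2572 CPM with 5xFAD against 824 to 952 CPM without it. All 7 markers of cortical projection neurons were detected in every group, at a summed 660 to 2294 CPM with a median of 1795 CPM. The second principal component set 2 libraries apart, 5xFAD tofacitinib 2 (-49.5) and wild-type sham 2 (66.9). On the first component wild-type tofacitinib 1 (-43.9) lay beside them (-45.7 and -47.1). That library, with a projection neuron sum of 1265 CPM, was kept when the 2 were left out. The library 5xFAD tofacitinib 2 had the lowest projection neuron sum (660 CPM) and the highest sum of choroid plexus markers, 1494 CPM against a median of 23.7 CPM. Striatal markers were found in every library, at a sum of 228 to 1388 CPM.

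Promoter sequence of Brwd1 and Morc3 is shown because these were the members in which no carrier overlapped any non-carrier. The sequences are from RefSeq, build GRCm38.p6, 5′ to 3′ on the strand of the gene, and stop where the gene begins in GENCODE M21. For Brwd1 these are 152 bases at chr16:96082527-96082678 on the minus strand. For Morc3 they are 250 bases at chr16:93831871-93832120 on the plus strand, with capitals marking a match to GCGCATGC, a motif of the factor NRF1, in reverse complement. Another sequence, of 28 bases at chr16:93603944-93603971 on the minus strand, surrounds the single match among the members to CCGGAAGT, the motif that ETS factors such as GABP and Ets2 bind. It lies 146 bases before the RefSeq start of Setd4, inside the longer Setd4 gene of GENCODE M21, and its capitals mark the motif in reverse complement.
Brwd1: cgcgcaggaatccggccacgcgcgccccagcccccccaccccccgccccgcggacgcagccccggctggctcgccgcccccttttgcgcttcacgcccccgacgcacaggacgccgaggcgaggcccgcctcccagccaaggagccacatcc
Morc3: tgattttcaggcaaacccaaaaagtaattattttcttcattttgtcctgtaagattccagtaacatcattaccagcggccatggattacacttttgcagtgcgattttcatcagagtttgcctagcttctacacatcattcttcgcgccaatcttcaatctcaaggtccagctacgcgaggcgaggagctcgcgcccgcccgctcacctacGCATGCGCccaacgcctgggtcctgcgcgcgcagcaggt
Setd4: aagcaggagcACTTCCGGtgggcctggc

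RefSeq windows of 300 bases, from 250 before to 50 after a start, were matched by symbol for all 10 members, and Nrip1 had 2 such windows. The ETS motif was present on either strand in 1 of 10 members, Setd4, and in 3.89% of all 32851 windows. TGANTCAGC, the motif of Bach1 with its small Maf partners, was present in 0 of 10 members and in 1.19% of all windows. The NRF1 motif was present in 1 of 10 members, Morc3, and in 2.71% of all windows. In base composition the Brwd1 window held 80.0% G and C, the Hmgn1 window 76.0% and the Morc3 window 52.7%, the last equal to the median of all windows. These matches describe letters in the windows shown and not binding.

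Levels can be compared between genes only per length, and on the deposited RPKM scale (reads per kilobase of gene and 1e6 counted reads) the members covered a wide range. In wild-type sham cortex Hmgn1 was highest at 31.1 ± 4.40 RPKM (SD, n = 5), followed by Ets2 at 14.2 ± 2.36 RPKM. Nrip1 (5.02 ± 0.955 RPKM), Brwd1 (4.12 ± 0.306 RPKM), Morc3 (3.95 ± 0.147 RPKM) and Gabpa (3.76 ± 0.649 RPKM) came next, and each of these differed from its neighbour in the order by less than the larger of their SDs. Zbtb21 (2.95 ± 0.361 RPKM), Bach1 (1.76 ± 0.225 RPKM) and Setd4 (1.10 ± 0.524 RPKM) followed in steps larger than that. Chaf1b was lowest at 0.165 ± 0.177 RPKM. Hmgn1 and Ets2 were the highest members and Bach1, Setd4 and Chaf1b the lowest in each of the 8 groups, while the members between them changed places. In Dp16 sham, for example, Brwd1 (6.97 ± 0.0880 RPKM, n = 3) was above Nrip1 (6.68 ± 1.19 RPKM).

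**Figure D1:**
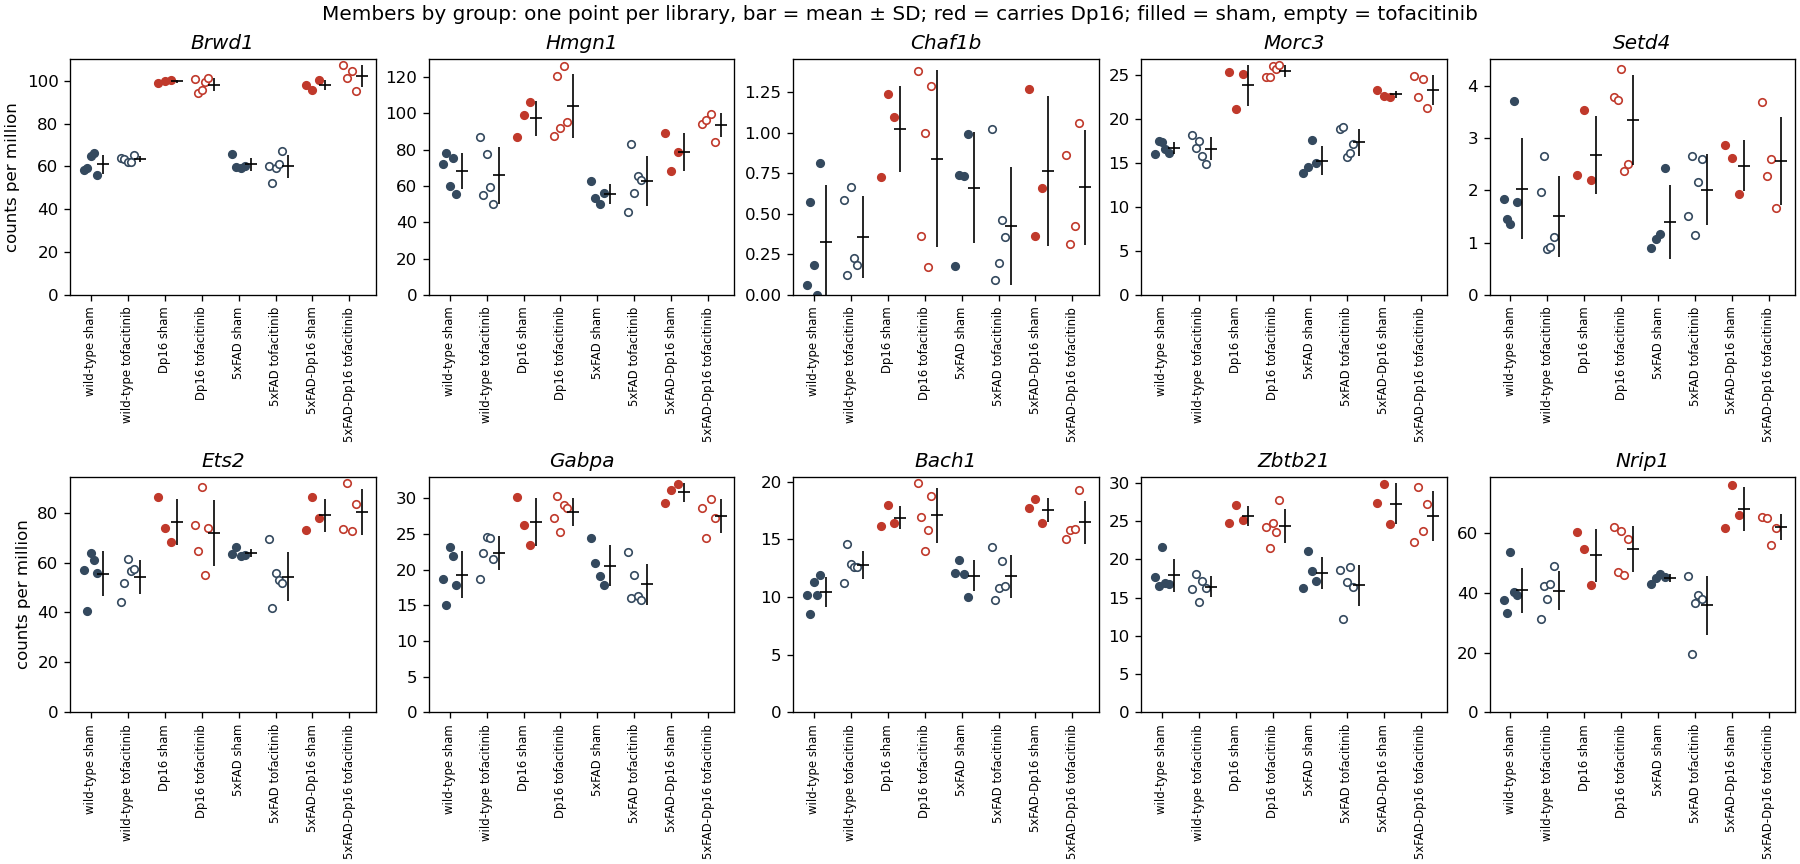
CPM of each member (y axis, from 0) in every library, by group (x axis). Each point is 1 mouse, red marks duplication carriers, filled points are sham and empty points tofacitinib, and the bar beside each group is the mean ± SD, not drawn below 0. Every red point lies above every dark point for Brwd1 (94.1 to 107 against 52.2 to 67.1 CPM) and for Morc3, and the colours overlap in the other members.

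Most of the members were higher in duplication carriers, by close to the ratio of copies. Carriers were compared with non-carriers within each of 4 strata, with and without 5xFAD and under sham and tofacitinib, and on the unweighted mean of the 4 log2 differences. On that mean, edgeR called 8 of 10 members higher at an adjusted p under 0.05 (2.14% of all genes tested were called in either direction, 1.17% higher), and all 10 had a log2 fold change above 0 in each stratum, although that of Chaf1b in 5xFAD-Dp16 against 5xFAD under sham fell below 0 when either of 2 libraries was left out. Setd4 and Chaf1b, the members with the fewest reads, were not called. Of the 96 other tested genes of the segment, 62 were called higher on the same mean. The median log2 fold change was 0.56 over the members, 0.55 over the 106 tested genes of the segment and 0.0044 over all genes tested. The 95% interval held 1.5-fold for 8 of 10 members, and the exceptions were Brwd1, which lay above it, and Ets2, which ended just below it. In bulk cortex, more cells of a type and more RNA per cell cannot be told apart. Markers of striatal neurons, the tissue beneath the cortex, were lower in carriers on the same mean, with 0 of 5 above 0, a median log2 of -0.56, 4 at an unadjusted p under 0.05 and none called by edgeR. Their summed level was 312 to 773 CPM in the sham and 228 to 1048 CPM in the tofacitinib groups of carriers, against 553 to 1388 and 328 to 1347 CPM in those of non-carriers. The median sum under sham was 442 CPM in Dp16 against 982 in wild-type, and 325 in 5xFAD-Dp16 against 891 in 5xFAD. Under tofacitinib it was higher in Dp16 (685 CPM) than in wild-type (424 CPM), and was 462 in 5xFAD-Dp16 against 796 in 5xFAD. Of the 5 microglia markers 1 was called lower (median log2 -0.14), and the projection neuron markers had a median of -0.01 with none called. The part of cell content in the members' values was not tested, apart from the fits with the projection neuron sum given further on.

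**Figure D2:**
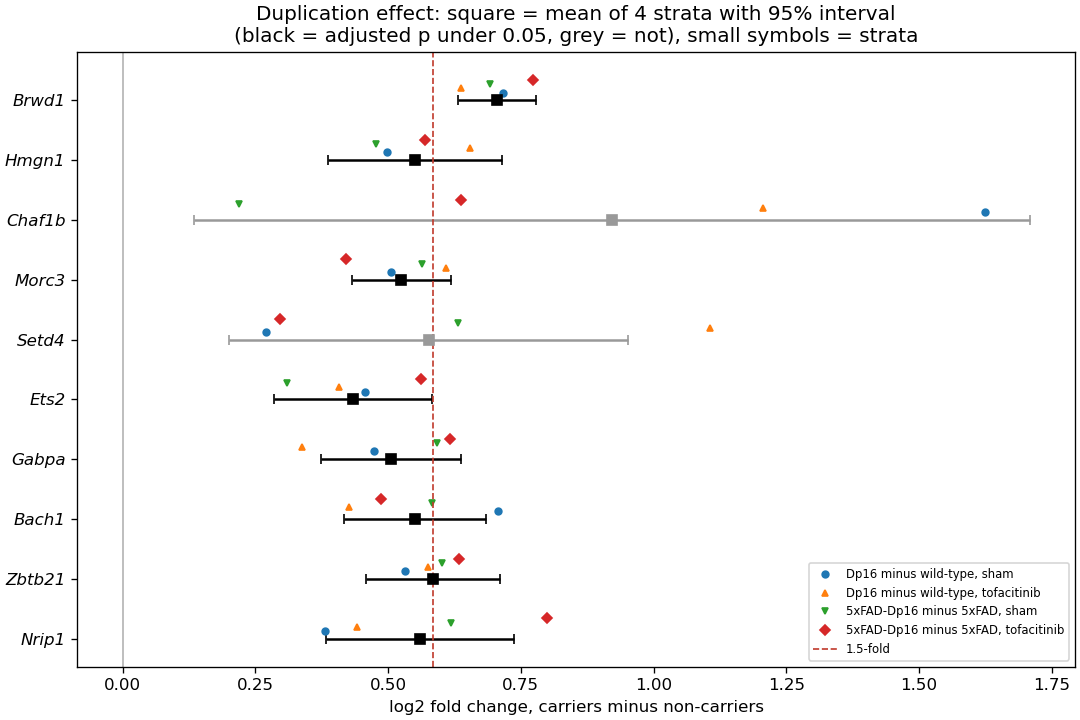
log2 fold change (x axis) of each member (rows) between duplication carriers and non-carriers. Squares are the mean of 4 strata with its 95% interval, black where called and grey where not, small symbols are the 4 strata, and the dashed line is 1.5-fold. Brwd1 lies to the right of the line, and Chaf1b and Setd4 have the widest intervals.

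Brwd1 (ENSMUSG00000022914.17, chromosome 16, 95992092 to 96082526, minus strand) encodes a protein with WD repeats and bromodomains that binds acetylated histones. Its wild-type sham libraries were at 58.4, 59.3, 64.8, 66.3 and 55.9 CPM and its Dp16 sham libraries at 98.9, 100.1 and 100.1 CPM. Those of 5xFAD sham were at 65.6, 59.6, 59.1 and 60.1 CPM and those of 5xFAD-Dp16 sham at 98.2, 95.7 and 100.3 CPM. Among sham mice the carriers were thus high and close together, well clear of the non-carriers. With tofacitinib it was at 64.1, 63.3, 62.2, 61.9 and 65.5 CPM in wild-type and at 101, 94.1, 95.6, 99.5 and 101 CPM in Dp16. The 5xFAD tofacitinib libraries were at 60.1, 52.2, 59.5, 60.9 and 67.1 CPM and the 5xFAD-Dp16 tofacitinib libraries at 107, 101, 104 and 95.3 CPM, again without overlap. Brwd1 rose 1.63-fold on the mean of strata (log2 0.70, 95% interval 0.63 to 0.78, edgeR adjusted p = 4.12e-15) and was called in all 4 strata, where it rose 1.55-fold to 1.71-fold. With only the groups compared in the fit, the call in 5xFAD-Dp16 against 5xFAD under tofacitinib was lost (edgeR adjusted p = 0.0939). By fold change it ranked 20 of the 106 tested segment genes.

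Hmgn1 (ENSMUSG00000040681.16, chromosome 16, 96120618 to 96127729, minus strand) encodes a small protein that binds nucleosomes and opposes their compaction. It was at 72.1, 78.2, 60.1, 75.3 and 55.7 CPM in wild-type sham and at 87.02, 98.9 and 106 CPM in Dp16 sham. In 5xFAD sham it was at 62.7, 53.5, 50.1 and 55.97 CPM and in 5xFAD-Dp16 sham at 89.3, 68.1 and 78.6 CPM. Groups of a stratum did not overlap, although 5xFAD-Dp16 sham 2 was below several wild-type libraries. Under tofacitinib it was at 86.7, 54.9, 77.8, 59.5 and 50.1 CPM in wild-type and at 87.3, 121, 91.8, 126 and 95.5 CPM in Dp16. The 5xFAD tofacitinib libraries were at 45.5, 83.1, 56.1, 65.7 and 63.4 CPM, with the library that stood apart the highest, and those of 5xFAD-Dp16 at 94.1, 96.2, 99.8 and 84.2 CPM. Over all strata 12 of 15 carriers were above all non-carriers. Hmgn1 rose 1.46-fold (log2 0.55, 95% interval 0.39 to 0.71, edgeR adjusted p = 3.43e-05), and of the strata it was called in Dp16 against wild-type under tofacitinib (1.57-fold, adjusted p = 0.0322). That call was lost without wild-type tofacitinib 2, 4 or 5 or Dp16 tofacitinib 2, 4 or 5 (edgeR adjusted p = 0.0560 to 0.192). It was also lost in 2 of 11 alternatives, among them the fit with only the groups compared (edgeR adjusted p = 0.462).

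Chaf1b (ENSMUSG00000022945.12, chromosome 16, 93883901 to 93906115, plus strand) is a subunit of chromatin assembly factor 1, which places new histones on replicated DNA, and had few reads in this tissue. It had 1, 9, 3, 0 and 15 counts in wild-type sham and 13, 22 and 19 in Dp16 sham. It had 3, 13, 15 and 20 counts in 5xFAD sham and 27, 7 and 14 in 5xFAD-Dp16 sham. The groups overlapped in both comparisons. Under tofacitinib the counts were 11, 2, 12, 4 and 3 in wild-type and 23, 6, 17, 3 and 22 in Dp16. In 5xFAD they were 21, 2, 4, 9 and 6 and in 5xFAD-Dp16 they were 18, 6, 8 and 21, again with overlap. Its log2 difference was 0.92 (95% interval 0.13 to 1.71, edgeR adjusted p = 0.257), which was not called. In 5xFAD-Dp16 against 5xFAD under sham the difference turned below 0 without 5xFAD sham 1 (-0.18) or 5xFAD-Dp16 sham 1 (-0.33).

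Morc3 (ENSMUSG00000039456.10, chromosome 16, 93832121 to 93876073, plus strand) encodes an ATPase of nuclear bodies that takes part in silencing chromatin. It was at 16.03, 17.4, 17.3, 16.5 and 16.1 CPM in wild-type sham and at 25.3, 21.1 and 25.02 CPM in Dp16 sham. It was at 13.8, 14.5, 17.6 and 15.01 CPM in 5xFAD sham and at 23.3, 22.5 and 22.5 CPM in 5xFAD-Dp16 sham. Under sham the lowest carrier was thus above the highest non-carrier. With tofacitinib, Morc3 was at 18.2, 16.7, 17.5, 15.8 and 14.9 CPM in wild-type and at 24.7, 24.7, 25.96, 25.7 and 26.1 CPM in Dp16. The 5xFAD tofacitinib libraries were at 18.8, 18.999, 15.7, 16.1 and 17.1 CPM and the 5xFAD-Dp16 libraries at 24.8, 22.5, 24.5 and 21.2 CPM. Brwd1 and Morc3 were the 2 members in which all 15 carriers were above all 19 non-carriers, as were 16 of all genes tested (0.0907%). Morc3 rose 1.44-fold (log2 0.53, 95% interval 0.43 to 0.62, edgeR adjusted p = 1.33e-09) and was called in all 4 strata. Only the call in Dp16 against wild-type under tofacitinib held in each of the 34 fits with a library left out, without the low-count filter and with only the groups compared. In the other 3 strata both of the last ended it (edgeR adjusted p = 0.0937 to 0.486), as did the removal of Dp16 sham 1 or 3, of 5xFAD sham 1 or 5xFAD-Dp16 sham 4, and of 5xFAD tofacitinib 4 or 5 or 5xFAD-Dp16 tofacitinib 1 or 3, respectively (edgeR adjusted p = 0.0550 to 0.144).

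Setd4 (ENSMUSG00000022948.16, chromosome 16, 93583457 to 93604063, minus strand) encodes a SET domain methyltransferase and had 15 to 77 counts per library. It was at 1.84, 1.46, 1.37, 3.72 and 1.78 CPM in wild-type sham and at 2.30, 3.55 and 2.201 CPM in Dp16 sham. It was at 0.898, 1.08, 1.17 and 2.44 CPM in 5xFAD sham and at 2.87, 2.62 and 1.93 CPM in 5xFAD-Dp16 sham. One library, wild-type sham 4, was above every carrier of the sham groups. Under tofacitinib it was at 1.98, 2.65, 0.889, 0.910 and 1.10 CPM in wild-type and at 3.78, 3.73, 4.34, 2.37 and 2.51 CPM in Dp16. The 5xFAD libraries were at 1.51, 2.67, 1.14, 2.17 and 2.60 CPM and the 5xFAD-Dp16 libraries at 3.69, 2.28, 2.60 and 1.67 CPM, and the groups overlapped in all 4 strata. Its log2 difference was 0.58 (95% interval 0.20 to 0.95, edgeR adjusted p = 0.107), not called. The call depended on the model, since without the sex term it was 0.68 with an edgeR adjusted p of 0.0389.

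Ets2 (ENSMUSG00000022895.16, chromosome 16, 95702075 to 95721051, plus strand) is an activator of the ETS family, downstream of MAP kinases. It was at 57.1, 40.4, 63.8, 60.9 and 55.8 CPM in wild-type sham and at 86.1, 73.9 and 68.2 CPM in Dp16 sham. It was at 63.6, 66.1, 62.8 and 63.1 CPM in 5xFAD sham and at 72.8, 86.1 and 77.9 CPM in 5xFAD-Dp16 sham. Neither pair of groups overlapped. The tofacitinib groups of Ets2 were at 44.02, 51.6, 61.3, 56.6 and 57.4 CPM in wild-type and at 75.04, 64.6, 90.3, 54.96 and 73.8 CPM in Dp16, where Dp16 tofacitinib 4 was below several wild-type libraries. The 5xFAD libraries were at 69.4, 41.8, 55.9, 52.9 and 51.9 CPM and the 5xFAD-Dp16 libraries at 73.3, 91.8, 72.5 and 83.3 CPM, without overlap. Ets2 rose 1.35-fold (log2 0.43, 95% interval 0.29 to 0.58, edgeR adjusted p = 0.000333), the smallest fold of the 10 members and rank 83 of 106 in the segment. It was called in none of the single strata.

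Gabpa (ENSMUSG00000008976.16, chromosome 16, 84834925 to 84863779, plus strand) is the DNA-binding subunit of GA-binding protein, an ETS factor of mitochondrial and housekeeping genes. It was at 18.6, 15.1, 23.2, 21.97 and 17.8 CPM in wild-type sham and at 30.3, 26.3 and 23.5 CPM in Dp16 sham. It was at 24.5, 20.9, 19.1 and 17.8 CPM in 5xFAD sham and at 29.3, 31.2 and 32.01 CPM in 5xFAD-Dp16 sham. The lowest Dp16 sham library was just above the highest wild-type one, and the 5xFAD groups were further apart. Under tofacitinib it was at 18.8, 22.4, 24.6, 24.4 and 21.5 CPM in wild-type and at 27.3, 30.3, 25.3, 29.01 and 28.7 CPM in Dp16. The 5xFAD libraries were at 22.4, 16.1, 19.3, 16.3 and 15.7 CPM and the 5xFAD-Dp16 libraries at 28.7, 24.4, 29.9 and 27.2 CPM, and in no stratum did the groups overlap. Gabpa rose 1.42-fold (log2 0.51, 95% interval 0.37 to 0.64, edgeR adjusted p = 3.36e-06). Of the strata it was called in 5xFAD-Dp16 against 5xFAD under tofacitinib (1.53-fold, adjusted p = 0.0112), but not without 5xFAD-Dp16 tofacitinib 3 (edgeR adjusted p = 0.0716) or with only the groups compared in the fit (edgeR adjusted p = 0.316). It shares 6.98% of its exonic bases with Atp5j on the opposite strand, a duplicated gene with 2137 to 7471 counts per library, and because the strand setting of the counting is not given, the part of Atp5j reads in the Gabpa counts is uncertain.

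Bach1 (ENSMUSG00000025612.5, chromosome 16, 87698945 to 87733346, plus strand) is a repressor of heme, iron and antioxidant genes that leaves DNA when it binds heme. It was at 10.2, 8.52, 11.3, 10.1 and 11.9 CPM in wild-type sham and at 16.2, 18.01 and 16.4 CPM in Dp16 sham. It was at 12.1, 13.2, 11.99 and 9.99 CPM in 5xFAD sham and at 17.7, 18.5 and 16.4 CPM in 5xFAD-Dp16 sham. Carriers were clear of non-carriers in both comparisons. Bach1 in tofacitinib-treated mice was at 11.2, 14.6, 12.8, 12.6 and 12.6 CPM in wild-type and at 19.9, 16.9, 13.9, 15.8 and 18.8 CPM in Dp16, where wild-type tofacitinib 2 and Dp16 tofacitinib 3 overlapped. The 5xFAD libraries were at 14.3, 9.77, 10.7, 13.1 and 10.99 CPM and the 5xFAD-Dp16 libraries at 15.05, 15.8, 15.9 and 19.2 CPM, without overlap. Bach1 rose 1.46-fold (log2 0.55, 95% interval 0.42 to 0.68, edgeR adjusted p = 9.24e-07), and of the strata it was called in Dp16 against wild-type under sham (1.63-fold, adjusted p = 0.00733). That call was lost without Dp16 sham 2 (edgeR adjusted p = 0.0995) and with only the groups compared in the fit (edgeR adjusted p = 0.206).

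Zbtb21 (ENSMUSG00000046962.16, chromosome 16, 97943357 to 97962622, minus strand), the last gene of the segment, encodes a zinc finger repressor with a BTB domain. It was at 17.8, 16.5, 21.7, 16.9 and 16.8 CPM in wild-type sham and at 24.7, 27.2 and 25.1 CPM in Dp16 sham. It was at 16.2, 21.1, 18.5 and 17.2 CPM in 5xFAD sham and at 27.4, 29.9 and 24.6 CPM in 5xFAD-Dp16 sham. Under sham all carriers were above all non-carriers. With tofacitinib, Zbtb21 was at 16.1, 18.1, 14.5, 17.2 and 16.3 CPM in wild-type and at 24.3, 21.5, 24.7, 23.6 and 27.8 CPM in Dp16. The 5xFAD libraries were at 18.6, 12.2, 17.1, 18.97 and 16.4 CPM and the 5xFAD-Dp16 libraries at 22.3, 29.4, 23.7 and 27.3 CPM, without overlap in either stratum. Zbtb21 rose by a log2 of 0.58 (95% interval 0.46 to 0.71, edgeR adjusted p = 8.39e-08), and was called in both tofacitinib strata, though in neither with only the groups compared in the fit (edgeR adjusted p = 0.111 and 0.400). It overlaps C2cd2 over 19242 bases on the same strand and shares 86 of 6335 exonic bases with it, and C2cd2 rose 1.69-fold, so that the part of C2cd2 reads in the Zbtb21 counts is uncertain.

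Nrip1 (ENSMUSG00000048490.14, chromosome 16, 76287400 to 76373827, minus strand) encodes RIP140, a corepressor of nuclear receptors. It was at 37.6, 33.3, 53.6, 40.3 and 39.4 CPM in wild-type sham and at 60.3, 54.6 and 42.7 CPM in Dp16 sham. It was at 43.1, 44.9, 46.4 and 45.2 CPM in 5xFAD sham and at 61.8, 76.1 and 66.1 CPM in 5xFAD-Dp16 sham. The first pair of groups overlapped and the second did not. Under tofacitinib it was at 31.4, 42.3, 38.1, 42.9 and 48.9 CPM in wild-type and at 62.1, 47.1, 60.8, 45.9 and 57.9 CPM in Dp16, with overlap. The 5xFAD libraries were at 45.6, 19.5, 36.6, 39.4 and 37.9 CPM, the lowest being the library that stood apart, and the 5xFAD-Dp16 libraries at 65.3, 64.9, 55.9 and 61.7 CPM, without overlap. Nrip1 rose 1.47-fold (log2 0.56, 95% interval 0.38 to 0.74, edgeR adjusted p = 0.000102), from 1.30-fold in Dp16 against wild-type under sham to 1.74-fold in 5xFAD-Dp16 against 5xFAD under tofacitinib, where it was called (adjusted p = 0.0135). That call was lost without 5xFAD-Dp16 tofacitinib 1 or 2 (edgeR adjusted p = 0.0547 and 0.0601) and with only the groups compared in the fit (edgeR adjusted p = 0.502).

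Counted by stratum, edgeR called 3 members in Dp16 against wild-type under sham, Bach1, Brwd1 and Morc3 (0.193% of all genes were called higher). Under tofacitinib it called 4, Brwd1, Hmgn1, Morc3 and Zbtb21 (0.216%). In 5xFAD-Dp16 against 5xFAD it called 2 under sham, Brwd1 and Morc3 (0.102%). Under tofacitinib it called 5, Brwd1, Gabpa, Morc3, Nrip1 and Zbtb21 (0.199%). Of the 96 other tested genes of the segment, edgeR called 23, 27, 14 and 22 higher in the same 4 strata. All libraries of carriers were above those of non-carriers for 7, 5, 8 and 8 members in these strata, in that order, against 2.77%, 0.771%, 5.32% and 1.26% of all genes tested. The number of calls changed with single libraries and with the groups in the fit. With only the groups compared it was 1 and 2 in Dp16 against wild-type under sham and tofacitinib, and 0 in 5xFAD-Dp16 against 5xFAD under tofacitinib. In 5xFAD-Dp16 against 5xFAD under sham there were 4 calls without 5xFAD tofacitinib 1 and 1 call without 5xFAD-Dp16 sham 4, and under tofacitinib 3 without 5xFAD-Dp16 tofacitinib 1 or 3.

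The members' response to the duplication was not shown to depend on the other factors. For the interaction of duplication and 5xFAD, edgeR and DESeq2 called 0 members and 0 had an unadjusted p under 0.05 (edgeR called 0.00567% of all genes). Nrip1 had the smallest p, with a log2 difference of 0.30 between its response with and without 5xFAD (95% interval -0.04 to 0.64, edgeR adjusted p = 0.995). All 7 projection neuron markers were above 0 in the same interaction (median log2 0.16, none called by edgeR), while 0 of the 5 striatal markers were (median -0.59, none called). The projection neuron sum was 1384 to 2115 CPM in wild-type, 1653 to 1820 in Dp16, 1891 to 2219 in 5xFAD and 1835 to 2067 in 5xFAD-Dp16 under sham, and 1265 to 2294, 1408 to 1921, 660 to 2275 and 1695 to 2035 CPM under tofacitinib. The part of these markers in the Nrip1 value was not tested. For the interaction of duplication and tofacitinib edgeR and DESeq2 also called 0 members, with 0 at an unadjusted p under 0.05 (0% of all genes). The Brwd1 response differed by 0.00 between treatments, with a 95% interval of -0.14 to 0.14 on the log2 scale. Between females and males edgeR and DESeq2 called 0 members and 0 had an unadjusted p under 0.05 (0.0624% of all genes), and Setd4 had the largest difference, 0.33 higher in females on the log2 scale (95% interval -0.04 to 0.71, edgeR adjusted p = 0.93).

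No member was called for 5xFAD in the main edgeR fit. On the mean of 4 strata edgeR called 0 of 10, and DESeq2, which gave no adjusted p for Chaf1b and Setd4, called 0 of the others. By edgeR 1 member had an unadjusted p under 0.05 (0.42% of all genes were called). That member was Hmgn1, at 55.6 ± 5.32 CPM in 5xFAD sham (SD, n = 4) against 68.3 ± 9.85 CPM in wild-type sham (SD, n = 5), and at 78.7 ± 10.6 CPM in 5xFAD-Dp16 sham against 97.3 ± 9.61 CPM in Dp16 sham (SD, n = 3 each). Under tofacitinib the means were 62.8 ± 13.8 CPM in 5xFAD and 65.8 ± 15.7 CPM in wild-type (SD, n = 5 each), within the spread of either group. Its log2 difference on the mean of strata was -0.20 (95% interval -0.37 to -0.04, edgeR adjusted p = 0.162). Hmgn1 was called lower without the low-count filter (edgeR adjusted p = 0.0241) and with the projection neuron sum as a term (edgeR adjusted p = 0.0436). The other 9 members differed by -0.12 to 0.12, Brwd1 with the narrowest interval, -0.08 to 0.06.

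In the single 5xFAD strata edgeR and DESeq2 again called 0 members, against 0.017% of all genes in both comparisons of 5xFAD with wild-type and 0.00567% in both of 5xFAD-Dp16 with Dp16. An unadjusted p under 0.05 was found for 1 member in 1 stratum. Gabpa was at 17.98 ± 2.87 CPM in 5xFAD tofacitinib against 22.3 ± 2.39 CPM in wild-type tofacitinib (SD, n = 5 each), a log2 difference of -0.31 (95% interval -0.54 to -0.07, edgeR adjusted p = 0.743). Nrip1 was the 1 member whose groups did not overlap, higher in 5xFAD-Dp16 sham than in Dp16 sham (log2 0.37, 95% interval -0.03 to 0.76, edgeR adjusted p = 0.696), which was also so for 10.1% of all genes tested.

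Tofacitinib moved no member past the threshold either. On the mean of 4 strata edgeR called 0 of 10 members and 0% of all genes, DESeq2 called 0 members, and 0 had an unadjusted p under 0.05. The log2 differences were -0.25 to 0.12, the first in Chaf1b, with adjusted p of 0.935 to 0.977. For Brwd1 the 95% interval was -0.06 to 0.09 and for Morc3 -0.02 to 0.17. Within each genotype edgeR and DESeq2 called 0 members, edgeR called 0% of all genes, and 2 members had an unadjusted p under 0.05. Bach1 was at 12.8 ± 1.19 CPM in wild-type tofacitinib against 10.4 ± 1.30 CPM in wild-type sham (SD, n = 5 each; log2 0.29, edgeR adjusted p = 0.677). Morc3 was at 17.3 ± 1.52 CPM in 5xFAD tofacitinib (SD, n = 5) against 15.2 ± 1.63 CPM in 5xFAD sham (SD, n = 4; log2 0.18, edgeR adjusted p = 0.335).

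**Figure D3:**
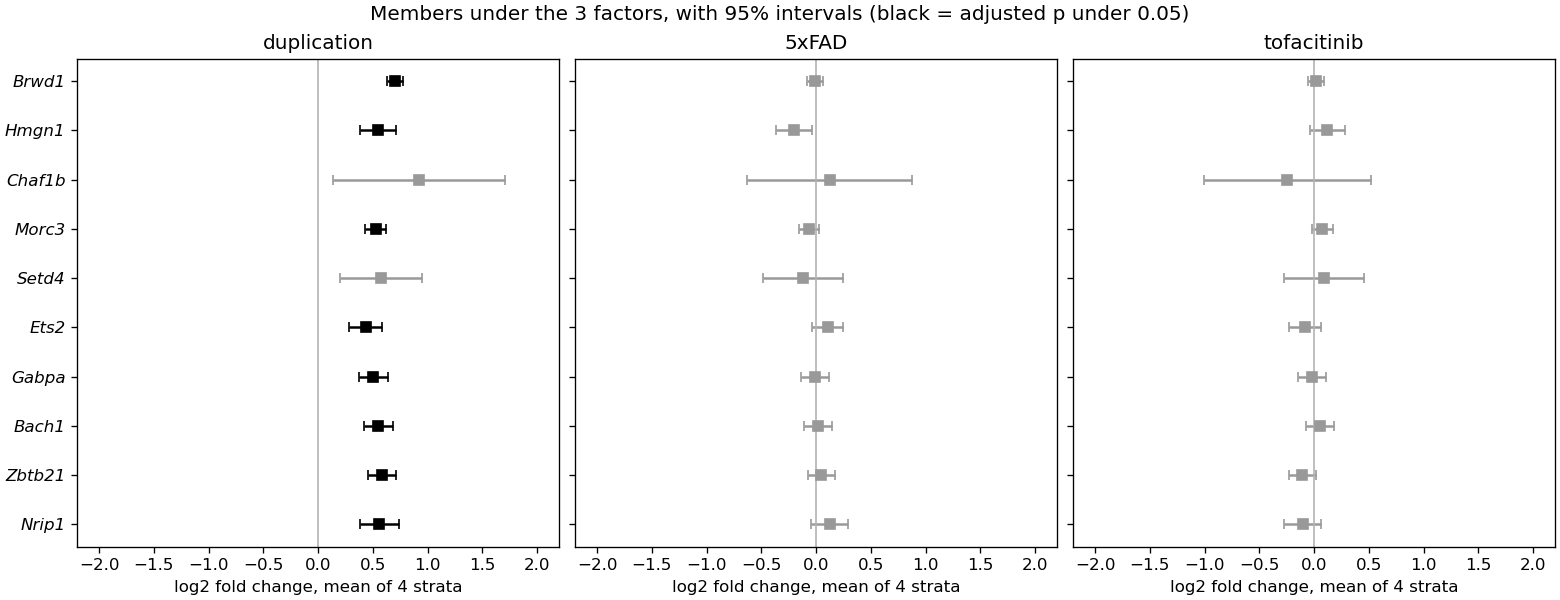
log2 fold change (x axes) of each member (rows) for the duplication, 5xFAD and tofacitinib, each the mean of 4 strata with its 95% interval. Black marks an adjusted p under 0.05, reached by 8 members in the left panel and by none in the others.

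Within groups, the members differed in how far libraries spread. With group and sex removed, the SD of log2 CPM was smallest for Brwd1 (0.0777) and Morc3 (0.105). It was 0.167 for Zbtb21, 0.172 for Bach1, 0.180 for Gabpa, 0.212 for Ets2, 0.242 for Hmgn1 and 0.263 for Nrip1. The SDs of Setd4 (0.483) and Chaf1b (0.945) were largest, at the lowest counts.

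Some members also moved together within groups. Over the 45 pairs of members the within-group correlation of log2 CPM (34 libraries that share their scaling, group and sex removed) had a median of 0.10 and ran from -0.80 to 0.78. It was highest for Ets2 with Nrip1 (0.78) and lowest for Hmgn1 with Nrip1 (-0.80), followed by Hmgn1 with Ets2 (-0.67). For Brwd1 with Morc3 it was -0.08.

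Markers of projection neurons moved with the same members. Slc17a7 had a mean of 1339 CPM and the other markers 26.0 to 132 CPM, so that their summed CPM mainly follows Slc17a7. The within-group correlation with this sum was 0.92 for Nrip1, 0.70 for Ets2, 0.66 for Zbtb21 and -0.85 for Hmgn1 over 34 libraries. Leaving out the 2 libraries that stood apart left 32 libraries, wild-type tofacitinib 1 among them. Over these the correlation was 0.83 for Nrip1, 0.68 for Ets2, 0.41 for Zbtb21 and -0.94 for Hmgn1. For Brwd1 it went from 0.32 to -0.19 and for Morc3 from -0.27 to -0.07. Sums of some other marker lists, though not of microglia markers, moved with these members too. For oligodendrocyte markers the value was -0.81 for Nrip1, -0.76 for Ets2 and 0.60 for Hmgn1 over 34 libraries, and -0.64, -0.80 and 0.49 over 32. For striatal markers, which were lower in carriers, it was -0.40 for Nrip1, -0.40 for Ets2 and 0.63 for Hmgn1 over 34, and -0.62, -0.51 and 0.71 over 32. For mural cell markers it was -0.57, -0.68 and 0.60 in that order over 34, and -0.54, -0.71 and 0.55 over 32. For blood markers it was -0.31 for Nrip1, -0.38 for Ets2 and 0.57 for Hmgn1 over 34, and -0.47, -0.49 and 0.63 over 32. For oligodendrocyte precursor markers it was 0.33 for Nrip1, 0.53 for Ets2 and -0.56 for Hmgn1 over 34, and 0.57, 0.58 and -0.68 over 32. In that order it was 0.37, 0.43 and -0.55 over 34 and 0.29, 0.32 and -0.51 over 32 for endothelial markers. Interneuron markers were at -0.21, -0.30 and 0.49, and at -0.60, -0.44 and 0.69 over 32. Thalamus markers were at -0.18, 0.01 and -0.17, and at 0.77, 0.59 and -0.79 over 32. Choroid plexus markers were at -0.45, -0.37 and 0.34, and at -0.22, -0.21 and 0.18 over 32. Microglia markers were at -0.10, 0.15 and -0.06, and at -0.05, 0.08 and -0.09 over 32. Astrocyte markers were at -0.25, 0.10 and 0.08, and at 0.07, 0.29 and -0.10 over 32. Hippocampus markers were at -0.27, 0.03 and 0.15, and at 0.29, 0.50 and -0.13 over 32. A length index was taken as the mean log2 CPM of the longest 25% of genes minus that of the shortest 25%. Its correlation over 34 libraries was 0.81 for Nrip1, 0.80 for Ets2 and -0.86 for Hmgn1. It was 0.59 for Bach1 and Zbtb21, 0.46 for Gabpa and 0.13 for Chaf1b. For Brwd1, the longest member, it was 0.09, for Morc3 -0.22 and for Setd4 -0.31. The index correlated with the projection neuron sum at 0.79. These values share libraries and scaling, and the part of cell content or RNA quality in them was not tested.

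**Figure D4:**
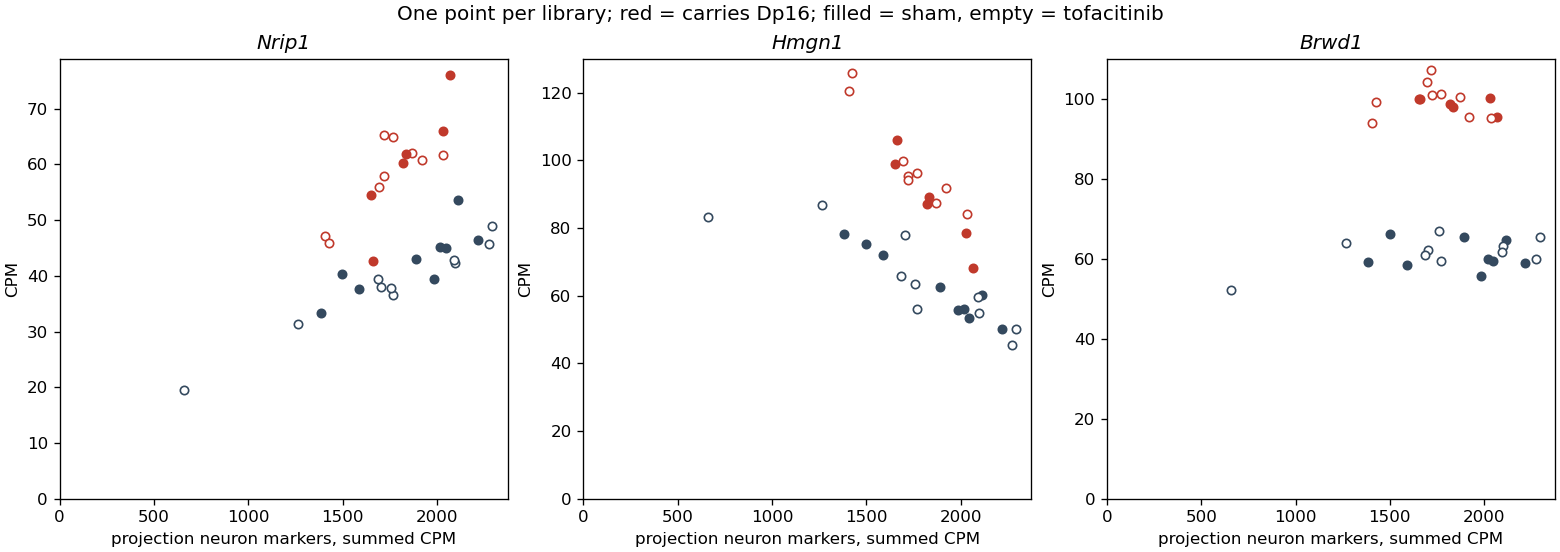
CPM of Nrip1, Hmgn1 and Brwd1 (y axes, from 0) against the summed CPM of 7 projection neuron markers (x axis), 1 point per library, red for duplication carriers and filled for sham. Nrip1 rises and Hmgn1 falls along the axis in both colours, Brwd1 stays at a level in each colour, and the library at 660 CPM is 5xFAD tofacitinib 2.

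The comparisons were repeated with each index as a term of the edgeR fit, a choice made after seeing the data. The members' median log2 response to the duplication was 0.57 with the length index and 0.55 with the projection neuron sum, and 8 and 9 members were called, Setd4 being the additional call (0.60, adjusted p = 0.0446). The 5xFAD difference of Hmgn1 depended on which was used. It was -0.16 with the projection neuron sum (edgeR adjusted p = 0.0436) and -0.05 with the length index (edgeR adjusted p = 0.862), against -0.20 with neither. The median length index was 2.70 in 5xFAD sham and 2.32 in wild-type sham, and 2.57 in 5xFAD-Dp16 sham and 2.21 in Dp16 sham. Under tofacitinib it ran the other way in 5xFAD (2.33) and wild-type (2.65), and was 2.46 in 5xFAD-Dp16 and 2.40 in Dp16. The part of the length index in the Hmgn1 difference was not tested beyond these fits.

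Genes with a pattern like that of the members were sought among 14475 genes with a mean of 1 CPM or more, by Pearson correlation of log2 CPM with the members' mean scaled level over 34 libraries. In the segment these were Ttc3 (0.97), Dyrk1a (0.93), Ltn1 (0.93), Cct8 (0.93) and Ifnar1 (0.92). Outside chromosome 16 they were Slc5a5 (0.82), Cort (0.81) and Selenov (0.77). Libraries of carriers and non-carriers lie apart in this pattern, and with group and sex removed the values were 0.62 for Ttc3, 0.58 for Dyrk1a, 0.27 for Ltn1, -0.10 for Cct8 and 0.24 for Ifnar1. They were 0.02 for Slc5a5, 0.22 for Cort and -0.13 for Selenov.

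Of 16 other nuclear regulators of the segment, 15 were tested and 10 were called higher by edgeR on the mean of 4 strata. Their log2 fold changes were 0.03 to 0.82 with a median of 0.50. The largest among those called were Rbm11, a splicing regulator (0.82), Mis18a, which takes part in loading centromeric histones (0.72), N6amt1, a methyltransferase (0.60), and Hlcs, which attaches biotin to proteins (0.56). The 5 that were not called are named after their values were seen: Ripply3 (0.78), Runx1 (0.23), Olig1 (0.22), Olig2 (0.14) and Erg (0.03). Olig1, a factor of the oligodendrocyte lineage, had an edgeR adjusted p of 0.0522 and was called in 8 of 10 alternatives, among them DESeq2 (adjusted p = 0.0179), and not without the sex term or with the replicate block. The 5 oligodendrocyte markers had a median of -0.16 in the same comparison, with 1 above 0 and none called.

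Of 25 paralogs and partners of the members outside the segment, among them Hmgn2, Chaf1a, Ets1, Bach2, Mafk and the GABP beta subunits, edgeR called 0, with 3 at an unadjusted p under 0.05, 7 above 0 and a median log2 of -0.04. Their most abundant genes, the corepressors Ncor1 and Ctbp1, were at -0.06 and -0.03. Gabpb1, the subunit that gives GABP its activation domain, is named after its value was seen. It was at -0.23 with an edgeR adjusted p of 0.0652, and was called lower in 4 of 10 alternatives: DESeq2 (adjusted p = 0.0331), without the 2 libraries that stood apart (edgeR adjusted p = 0.0481), with the length index (0.0144) and with the projection neuron sum (0.0371).

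Among genes known to be repressed by Bach1, edgeR called 1 of 13 lower and 0 higher, with 2 at an unadjusted p under 0.05, 7 of 13 above 0 and a median log2 of 0.0007. The called gene was Gclc, the catalytic subunit of the enzyme that starts glutathione synthesis, at -0.19 (edgeR adjusted p = 0.0121). Without the low-count filter it was not called (edgeR adjusted p = 0.142). DESeq2 called Gclc and Txnrd1 lower, as did edgeR without the 2 libraries that stood apart and with the projection neuron sum. With the length index as a term Slc7a11, a cystine transporter, was called higher (0.20, edgeR adjusted p = 0.0370). The TGANTCAGC motif was found in the windows of 2 of the 10 genes of this list that matched.

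Genes known to be activated by GABP showed no call in either direction, 0 of 14 by edgeR and 0 by DESeq2, with 1 at an unadjusted p under 0.05, 7 above 0 and a median log2 of 0.03. Atp5b, a subunit of ATP synthase, was at -0.06, and Cox4i1, a subunit of cytochrome c oxidase, at 0.06. Of 18 nuclear receptors that bind Nrip1, edgeR and DESeq2 called 0, with 5 at an unadjusted p under 0.05, 3 above 0 and a median log2 of -0.06. The most abundant were the thyroid hormone receptor Thra at -0.04 and the glucocorticoid receptor Nr3c1 at -0.07. With the length index as a term 2 genes activated by GABP, Atp5b and Cox5b, and 3 of the receptors, Esrra, Nr1d2 and Rarb, were called lower. Without the low-count filter Nr1d1 and Rarb were called lower, and Nr1d1 also without the 2 libraries that stood apart and with the projection neuron sum.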

How the data were processed

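Whole-number counts per gene, deposited by the authors for 34 cortex libraries, were the values tested. The submitters' processing notes name the tools behind them, without roles: bcl2fastq, HISAT2 2.1.0, HTSeq 0.6.1, SAMtools 1.5 and FastQC 0.11.5, with build GRCm38. Libraries were strand-specific per the labels' protocols, but the strand setting of the counting is not given in the sources used here. The RPKM values, also deposited by the authors, equalled counts per kilobase and column total to within a relative 8.88e-15 over 713471 values, and served for levels between genes. Positions are from GENCODE M21, while the deposited tables name M24. The series describes 6 mice in the 5xFAD tofacitinib group and 4 in the 5xFAD-Dp16 sham group; 5 and 3 are analysed here.

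In R 4.3.3, edgeR 4.0.16 fitted all 34 libraries at once (filterByExpr on the 8 groups, TMM, terms for group and sex, two-sided quasi-likelihood F-tests). P-values were Benjamini-Hochberg adjusted over 17632 genes within each of 18 comparisons, and calls were made under 0.05. The SE is the log2 fold change over the square root of F, and intervals use the t quantile. Within-group correlations used log2 CPM with a prior count of 2.

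The members, lists and tests were chosen with earlier results of these data known. Genes other than members were named by a rule: up to 4 called genes of a list by size of change, or its 2 most abundant genes where none was called, and the 5 segment genes and 3 genes outside chromosome 16 most like the members.

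Alternatives were DESeq2 1.42.0, genes kept from a mean of 1 CPM upward, omission of the low-count filter, DESeq2 size factors, TMM without segment genes, no sex term, a replicate block, only the groups compared, and each library, or both that stood apart, left out. After seeing the data, the length index and the projection neuron sum were added as covariates.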

Additional observations from a re-analysis of the deposited data

Results flagged for a closer look

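In each member and each group of 4 or 5 libraries, 60 sets in all, the highest and lowest libraries were compared with the rest by Dixon's criterion. A library lay far from the others in 3 sets, and chance flags about 1 in 20 groups. Brwd1 was at 65.6 CPM in 5xFAD sham 1, against 59.1 to 60.1 CPM in the other libraries of that group. Setd4 was at 3.72 CPM in wild-type sham 4, against 1.37 to 1.84 CPM. Zbtb21 was at 21.7 CPM in wild-type sham 3, against 16.5 to 17.8 CPM.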

How the results depend on the processing

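On the duplication's mean of 4 strata 8 or 9 members were called under each of 10 alternatives, with a median log2 of 0.53 to 0.57 when any 1 library was left out. Counts of single strata moved more. For Dp16 against wild-type they were, under sham, 8 with the length index, 5 with the projection neuron sum and 1 with only the groups compared in place of 3, and under tofacitinib 7, 7 and 2 in place of 4. For 5xFAD-Dp16 against 5xFAD under sham they were 5 by DESeq2, 4 without the low-count filter, 6 with the length index and 7 with the projection neuron sum in place of 2, and under tofacitinib 8 by DESeq2, 8 with the length index and 0 with only the groups compared in place of 5. For 5xFAD they were 1 without the low-count filter (Hmgn1, edgeR adjusted p = 0.0241) and 1 with the projection neuron sum in place of 0. With 1 library left out the counts of the 4 strata, in the order of the report, were 2 to 4, 3 to 4, 1 to 4 and 3 to 7. Chaf1b in 5xFAD-Dp16 against 5xFAD under sham turned to -0.18 without 5xFAD sham 1 and to -0.33 without 5xFAD-Dp16 sham 1, and had no value at a mean of at least 1 CPM. The causes were not tested.

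With the replicate block, 1 member was called in 5xFAD-Dp16 against 5xFAD under tofacitinib in place of 5, and 8 on the mean of 4 strata. The labels do not say that numbers pair mice. Same-numbered libraries of different groups correlated at a median of -0.04 over 98 pairs, and 2 of 34 libraries correlated best with their own number.

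All genes called on the duplication mean numbered 378, and 672 without the low-count filter, 206 with the block (66.0% of them higher, against 54.5%), 669 without the 2 libraries that stood apart, 1099 with the length index and 1092 with the projection neuron sum. For 5xFAD they numbered 74, and 17 to 1358 over the alternatives; for tofacitinib 0, and 0 to 51. In the 4 duplication strata they ranged from 6 to 158, 13 to 146, 13 to 145 and 0 to 515. In the comparisons of 5xFAD with wild-type they ranged from 1 to 1784 under sham and 0 to 84 under tofacitinib, of 5xFAD-Dp16 with Dp16 from 1 to 52 and 1 to 111, and for the interactions of the duplication with 5xFAD and tofacitinib from 1 to 137 and 0 to 55. For tofacitinib within wild-type, Dp16, 5xFAD and 5xFAD-Dp16 the highest counts were 50, 31, 642 and 93, and for sex the range was 5 to 84. Chaf1b and Setd4 had the fewest counts of the members, 0 to 27 and 15 to 77 per library.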
